A study of Mus musculus with 6 samples.

Results

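The matrix metalloproteinases (MMPs) and their tissue inhibitors (TIMPs) were read in F4/80high and F4/80low tumor-associated macrophages (TAMs) of a mouse melanoma. The members were the 10 genes *Mmp2*, *Mmp8*, *Mmp9*, *Mmp12*, *Mmp13*, *Mmp14*, *Mmp19*, *Timp1*, *Timp2* and *Timp3*, taken by gene symbol from the 23424 genes counted in each library, 7 of them MMPs and 3 of them TIMPs. YUMM1.7 is a murine melanoma cell line, and its tumors grew in the dermis of wild-type female C57Bl/6J mice that were 8 weeks old at injection and received no treatment. Tumors were taken on day 21, and live CD45+ CD11b+ F4/80+ cells were sorted by their level of F4/80, a macrophage surface protein encoded by *Adgre1*. Each subset gave 3 libraries, from 3 independent experiments on 10 pooled tumors each, so a library stands for a pool of mice and one cell line stands for the tumor. Both subsets came from the same untreated tumors, with no library from skin or from F4/80-negative cells.

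MMPs are zinc-dependent proteases that are made as inactive precursors and cut collagens, elastin, gelatin and other proteins of the extracellular matrix. TIMPs bind the active enzymes and block them, and TIMP2 also takes part, on the cell surface, in the activation of MMP2 by MMP14. In tumors, macrophages, neutrophils and fibroblasts are known sources of these proteins, and each cell type carries its own set of them.

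The 7 proteases share a short coding stretch around the site that holds the catalytic zinc. It is shown here because it lets the family be compared base by base, and because reads of near-identical genes could be counted on the wrong one. In each line of 33 bases, from the GENCODE M21 transcripts of GRCm38, the capitals mark the 3 histidine codons of the site.
Mmp2, chr8:92839279-92839311, + strand, exon 8: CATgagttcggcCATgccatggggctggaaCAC
Mmp8, chr9:7563086-7563118, + strand, exon 5: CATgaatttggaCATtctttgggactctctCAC
Mmp9, chr2:164951133-164951165, + strand, exon 8: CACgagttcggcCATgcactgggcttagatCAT
Mmp12, chr9:7352914-7352946, + strand, exon 5: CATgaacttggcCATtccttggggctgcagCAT
Mmp13, chr9:7276573-7276605, + strand, exon 5: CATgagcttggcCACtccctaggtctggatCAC
Mmp14, chr14:54437627-54437659, + strand, exon 5: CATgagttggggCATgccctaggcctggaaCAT
Mmp19, chr10:128795673-128795705, + strand, exon 5: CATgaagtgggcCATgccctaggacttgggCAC
No pair was alike throughout this stretch. The comparison cannot show whether reads were counted on the wrong gene, since the counting rule is not given and other MMP genes were not compared. *Mmp2* and *Mmp14* were identical at 27 of the 33 bases, the highest number among the pairs, and *Mmp8* was identical to *Mmp9* and to *Mmp14* at 20, the lowest.

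The total counts ranged from 16045281 to 43604373, and 3 counts, the floor used here, corresponded to 0.0583 to 0.342 CPM, the normalized level used here, in which counts are scaled to a common library size with the TMM factor. Values of the 3 libraries of a subset are given in the order of replicates 1, 2 and 3. The lowest count of any member in any library was 37, for *Mmp13* in F4/80low replicate 3, so all 10 members were above the floor in all 6 libraries. Replicates 1 and 2 of both subsets form batch 1 and replicate 3 of both forms batch 2 in the study's own plot of the libraries, and the batch 2 libraries were the smallest. In these, *Lars2*, *Gm23935* and *Gm15564* took 17.1% and 16.1% of the counts, against 0.378% to 0.609% in batch 1. Macrophage genes were high in all libraries, with *Csf1r*, the receptor for the growth factor CSF1, at 437 to 1413 CPM. *Adgre1* measured 273, 539 and 360 CPM in the F4/80high libraries and 243, 327 and 183 CPM in the F4/80low libraries. It was higher in F4/80high TAMs in each replicate pair, but its ranges overlapped and it did not pass the test (difference of 0.67 on the log2 scale, SE 0.30, adjusted p = 0.664 by edgeR). The melanoma gene *Mlana* had 1 count in all libraries together, but it was 1 of 7 melanoma markers listed. *Tyr*, *Tyrp1* and *Dct* were not among the genes counted. The summed level of the 4 that were, *Mlana* included, was 19.6, 23.3 and 168 CPM in the F4/80high libraries. In the F4/80low libraries it was 15.2, 13.2 and 106 CPM.

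The comparison of the subsets asks how the protease and inhibitor genes were divided between TAMs with high and low F4/80. *Mmp8* and *Mmp9*, the neutrophil collagenase and the large gelatinase, were lower in F4/80high TAMs in 3 of 3 replicate pairs, and *Mmp12* and *Mmp13*, macrophage elastase and a collagenase, were higher in 3 of 3. *Mmp14*, a membrane-bound activator of MMP2, and *Timp2* were also higher in F4/80high TAMs in each pair, with smaller fitted fold changes, and *Mmp19* and *Timp3* were lower. *Mmp2* and *Timp1* had no common direction. In bulk RNA such as this, fewer cells of a type and less RNA per cell cannot be told apart. With edgeR's quasi-likelihood test and batch as a term, none of the 10 members was called (adjusted p under 0.05 with an absolute log2 fold change of more than 1), and neither was any of the 14645 genes tested (0%). At an unadjusted p under 0.05, 4 of the 10 members passed in edgeR (*Mmp8*, *Mmp9*, *Mmp12* and *Mmp13*), against 7.6% of all genes tested, 3.28% higher and 4.32% lower in F4/80high TAMs. With the replicate number, which was taken to mark the experiment, as a block in place of batch, edgeR called 76 genes (0.519%, of which 0.232% higher and 0.287% lower in F4/80high TAMs), among them *Mmp8* and *Mmp9*. DESeq2 called 150 genes (1.02%, with 0.71% lower in F4/80high TAMs) with batch, and *Mmp8* and *Mmp9* were again the members called. It called 356 (2.43%, with 0.901% higher and 1.53% lower) with the block, among them *Mmp8*, *Mmp9*, *Mmp12* and *Mmp13*.

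**Figure D1:**
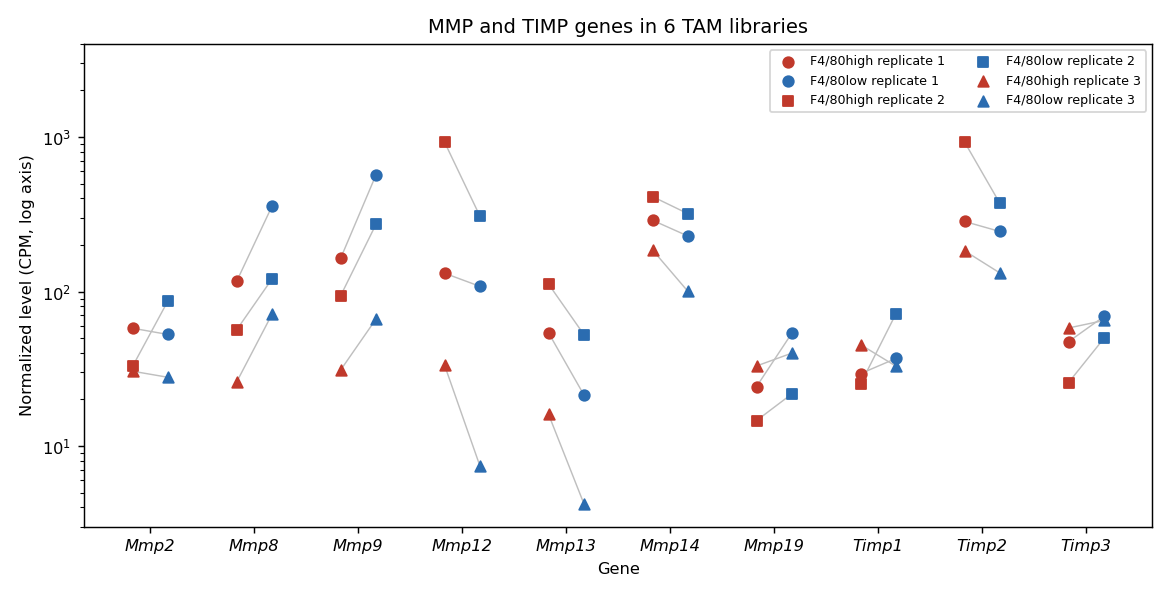
Normalized level (CPM, log axis) of the 10 genes in the 6 libraries, F4/80high in red and F4/80low in blue, with 1 symbol for each replicate and a line joining the libraries of one experiment. The lines of *Mmp8* and *Mmp9* go up towards F4/80low and those of *Mmp12* and *Mmp13* go down, while the ranges of the subsets overlap for all 10 genes.

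One direction in all 3 pairs was seen for 8 of the 10 members, 4 in each direction, where 31.9% of all genes tested had one direction in all pairs. No member had ranges of the subsets that were apart, against 5.2% of all genes tested, 2.3% higher and 2.9% lower in F4/80high TAMs. The median log2 fold change of the members was -0.45, against 0.01 for all genes, and the median absolute log2 fold change was 0.77, against 0.35. With fold changes of both signs, the median over the members describes none of them. The members were chosen with earlier results of these data known, so their counts beside the shares of all genes are a description and no test.

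*Mmp8* (ENSMUSG00000005800) lies on chromosome 9 from 7558456 to 7568485 of GRCm38 and encodes a collagenase stored in neutrophil granules. It measured 116, 56.5 and 25.9 CPM in the F4/80high libraries and 356, 120 and 71.2 CPM in the F4/80low libraries. Each F4/80low library was above the F4/80high library of its own experiment, but F4/80high replicate 1 was close to F4/80low replicate 2 and above F4/80low replicate 3. The means were 66.2 ± 45.9 and 183 ± 152 CPM (SD, n = 3 each), and the log2 fold change was -1.46 (SE 0.42, adjusted p = 0.503 by edgeR). With the replicate block it was -1.39 (SE 0.21, adjusted p = 0.0324 by edgeR). By pair, on log2 of CPM plus 0.5, the differences were -1.61, -1.09 and -1.44. Leaving out F4/80low replicate 1, the library with the highest value, gave -0.90, and batch 1 alone gave -1.46.

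*Mmp9* (ENSMUSG00000017737), on chromosome 2 from 164940780 to 164955850, encodes a gelatinase that neutrophils also store and that macrophages can secrete. It measured 164, 93.9 and 31.0 CPM in the F4/80high libraries and 568, 272 and 66.3 CPM in the F4/80low libraries. As for *Mmp8*, the order of the replicates was the same in both subsets, with replicate 1 highest and replicate 3 lowest. The log2 fold change was -1.51 (SE 0.35, adjusted p = 0.44 by edgeR), and with the replicate block -1.48 (SE 0.21, adjusted p = 0.0304 by edgeR). The pairs differed by -1.79, -1.53 and -1.08, and batch 1 alone gave -1.70. Of the 10 members, *Mmp9* had the lowest p in this fit, and the value without F4/80low replicate 1 was -1.09.

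*Mmp12* (ENSMUSG00000049723), on chromosome 9 from 7344381 to 7369499, encodes macrophage elastase. It measured 131, 925 and 33.3 CPM in the F4/80high libraries and 108, 307 and 7.42 CPM in the F4/80low libraries. It was the most variable member, 125-fold between the highest and the lowest library, and its mean in batch 1 was 18.1-fold that in batch 2. The log2 fold change was 1.6 (SE 0.65, adjusted p = 0.629 by edgeR) and with the replicate block 1.31 (SE 0.33, adjusted p = 0.161 by edgeR). The pairs differed by 0.28, 1.59 and 2.09, so the first experiment showed little difference. The size depended on the library left out. It was 0.48 without F4/80high replicate 2, 2.24 without F4/80low replicate 2 and 2.16 without F4/80high replicate 1. Without any other single library it was 1.31 to 1.35. Each of these fits kept the partner of the library left out, so the values also reflect the broken pair. DESeq2 with the block called the gene (adjusted p = 0.00141), and DESeq2 with batch gave an adjusted p of 0.579.

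*Mmp13* (ENSMUSG00000050578), on chromosome 9 from 7272514 to 7283331, encodes a collagenase that acts on fibrillar collagen. It measured 53.9, 112 and 16 CPM in the F4/80high libraries and 21.4, 52.6 and 4.22 CPM in the F4/80low libraries. The replicates had the same order as for *Mmp12*, but the differences within pairs were more even, at 1.31, 1.08 and 1.81. The log2 fold change was 1.38 (SE 0.41, adjusted p = 0.504 by edgeR), with the block 1.41 (SE 0.25, adjusted p = 0.0569 by edgeR), and in batch 1 alone 1.16. DESeq2 with the block called *Mmp13* as well (adjusted p = 9.3e-05), and with batch it gave 0.0866.

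*Mmp14* (ENSMUSG00000000957), on chromosome 14 from 54431612 to 54445364, encodes a protease anchored in the cell membrane. It measured 289, 411 and 186 CPM in the F4/80high libraries and 228, 319 and 100.2 CPM in the F4/80low libraries. Per kilobase it was among the 4 highest members in each library, and the difference was small, with a log2 fold change of 0.53 (SE 0.26, adjusted p = 0.686 by edgeR) and pairs at 0.34, 0.37 and 0.89. *Timp2* (ENSMUSG00000017466), on chromosome 11 from 118301069 to 118355740 on the minus strand, measured 284, 929 and 183 CPM in the F4/80high libraries and 245, 372 and 132 CPM in the F4/80low libraries. The log2 fold change of *Timp2* was 0.81 (SE 0.41, adjusted p = 0.693 by edgeR). The pairs of *Timp2* differed by 0.22, 1.32 and 0.48. Leaving out F4/80high replicate 2 but not its F4/80low partner gave 0.11. *Timp2* was highest in F4/80high replicate 2. That library also held the highest summed level of the 12 macrophage and monocyte markers, 29506 CPM against 8509 to 14439 CPM in the other 5, and the part of this in the values of *Mmp12* and *Timp2* was not tested.

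*Mmp2* (ENSMUSG00000031740), on chromosome 8 from 92827291 to 92853420, encodes the gelatinase that MMP14 activates. It measured 57.9, 32.9 and 30.5 CPM in the F4/80high libraries and 52.7, 87.1 and 27.8 CPM in the F4/80low libraries. The difference lay in the second experiment alone, with pairs at 0.13, -1.39 and 0.13. The log2 fold change of -0.38 (SE 0.32, adjusted p = 0.79 by edgeR) moved to -0.07 when F4/80low replicate 2 was left out and to -0.14 when F4/80high replicate 2 was, and it was -0.62 without replicate 3 of either subset and in batch 1 alone. *Mmp19* (ENSMUSG00000025355), a secreted protease encoded on chromosome 10 from 128790910 to 128800824, measured 24.3, 14.6 and 33 CPM in the F4/80high libraries and 53.8, 21.8 and 39.9 CPM in the F4/80low libraries. Its log2 fold change was -0.74 (SE 0.38, adjusted p = 0.696 by edgeR), with pairs at -1.13, -0.56 and -0.27, and -0.21 without F4/80low replicate 1.

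*Timp1* (ENSMUSG00000001131), on chromosome X from 20870166 to 20874735, encodes an inhibitor known to bind MMP9. It measured 29.4, 25.2 and 45.3 CPM in the F4/80high libraries and 36.9, 71.7 and 32.9 CPM in the F4/80low libraries. The pairs went both ways, at -0.32, -1.49 and 0.46, and the log2 fold change was -0.53 (SE 0.37, adjusted p = 0.745 by edgeR). Without F4/80low replicate 2 it was -0.07, and -0.33 without the F4/80high library of that experiment. It was -0.99 without replicate 3 of either subset, and also in batch 1 alone. *Timp3* (ENSMUSG00000020044), on chromosome 10 from 86300372 to 86349506, encodes an inhibitor that is held in the matrix and also blocks ADAM proteases. It measured 47.3, 25.7 and 58.1 CPM in the F4/80high libraries and 68.9, 49.7 and 64.9 CPM in the F4/80low libraries, with a log2 fold change of -0.52 (SE 0.30, adjusted p = 0.699 by edgeR) and pairs at -0.54, -0.94 and -0.16. Leaving out F4/80high replicate 2 gave -0.29 and leaving out F4/80low replicate 1 gave -0.33 for *Timp3*. In the second experiment *Mmp2*, *Timp1* and *Timp3* were each lower in F4/80high TAMs by more than in the others. The summed level of 10 fibroblast markers was also lowest in F4/80high replicate 2, at 539 CPM against 1260 to 2021 CPM in F4/80low and 1348 and 1684 CPM in the other F4/80high libraries, and the part of this in the values of these 3 genes was not tested.

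**Figure D2:**
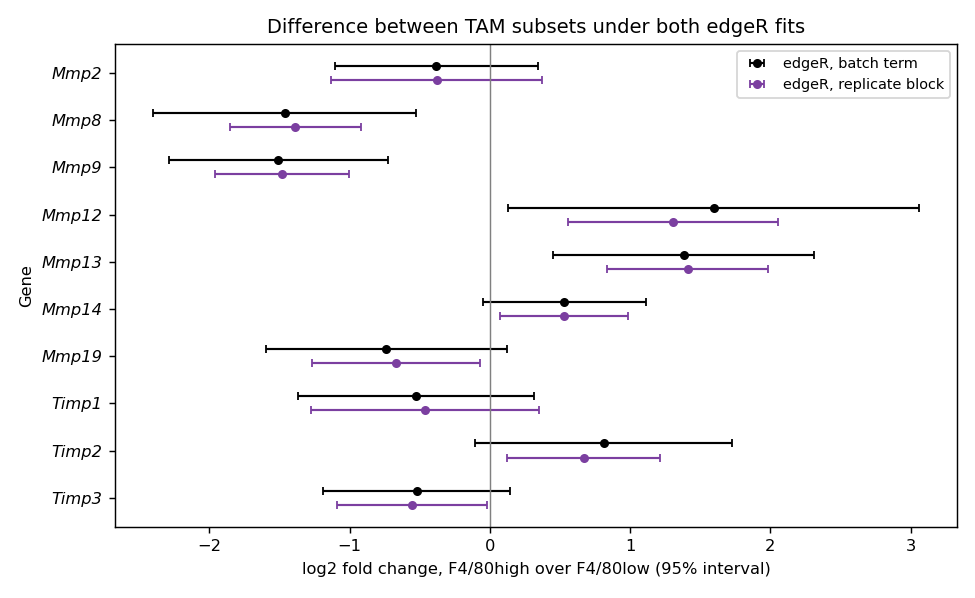
log2 fold change of each gene, F4/80high over F4/80low, with its 95% interval, from edgeR with batch as a term (black) and with the replicate number as a block (purple). The points of *Mmp8* and *Mmp9* lie near -1.5 and those of *Mmp12* and *Mmp13* above 1, and the intervals of these 4 genes leave out 0 under both fits.

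The batches differed as well. For *Mmp2*, *Mmp9*, *Mmp12*, *Mmp13*, *Mmp14* and *Timp2*, all 4 libraries of batch 1 were above both libraries of batch 2. The share of all genes tested with this pattern was not counted, so nothing is read from it about the members as a group. The ratio of the batch means was 18.1 for *Mmp12*, 5.92 for *Mmp13* and 5.64 for *Mmp9*, but 1.04 for *Timp1*, 0.785 for *Mmp19* and 0.779 for *Timp3*. Together the members took 0.157%, 0.31% and 0.037% of the total counts in the F4/80high libraries and 0.21%, 0.209% and 0.0296% in the F4/80low libraries. Batch 2 holds 1 library of each subset, so no spread within it can be had, and the third pair gives its only difference.

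Several members overlap other genes in GENCODE M21, and whether strand was used in the counting is not given in the sources used here. *Mmp12* overlaps *Mmp1b* on the other strand, which had 20 counts in all. *Mmp19* overlaps the end of *Tmem198b*, on the other strand, with 394, 593 and 16 counts in the F4/80high libraries and 600, 328 and 14 counts in the F4/80low libraries. The antisense gene *Gm47093*, also on the other strand from *Mmp19*, spans all of it and is not among the genes counted. *Timp1* and *Timp3* lie within the synapsin genes *Syn1* and *Syn3* on the opposite strand, which had at most 88 counts in any library. *Cep295nl*, on the same strand as *Timp2* and within its span, had at most 190. *Mmp19* itself had 752 to 2144 counts in the 4 libraries of batch 1, so its values are uncertain if reads of both strands were counted together.

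Levels of different genes were compared as CPM per kilobase of the length given with the counts. In F4/80high TAMs *Timp2* was highest at 119 ± 104 CPM per kb (SD, n = 3), followed by *Mmp14* at 68.7 ± 26.3, *Mmp12* at 50.2 ± 67.6 and *Timp1* at 37.5 ± 11.9. *Mmp9* (27.2), *Mmp8* (27.0), *Mmp13* (22.6) and *Mmp2* (13.3) came next, and *Mmp19* (7.02) and *Timp3* (5.37) were lowest. Between neighbours in this order, only *Mmp2* and *Mmp19* had ranges that were apart. In F4/80low TAMs *Mmp9* was highest at 85.4 ± 71.3 CPM per kb, followed by *Mmp8* at 74.5 ± 62.2, *Timp2* at 64.0 ± 30.8, *Timp1* at 53.1 ± 24.1 and *Mmp14* at 50.2 ± 25.6. *Mmp12* (19.5), *Mmp2* (18.4), *Mmp19* (11.3), *Mmp13* (9.74) and *Timp3* (7.51) made up the rest, and no neighbours had ranges that were apart. These are orders of the means, and single libraries departed from them. In F4/80low TAMs *Mmp9* was highest in replicate 1 alone, with *Timp2* highest in replicate 2 and *Timp1* in replicate 3. *Timp3* was lowest in 3 of the 6 libraries, and *Mmp12* was lowest in both libraries of batch 2.

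The make-up of the MMPs differed from library to library. *Mmp8* and *Mmp9* held 35.0% and 38.7% of the summed MMP level, per kilobase, in F4/80low replicate 1, but 6.98% and 8.04% in F4/80high replicate 2. In the latter library *Mmp12* was the leading MMP with 38.7%, where it held 1.08% in F4/80low replicate 3. *Mmp14* held 29.8%, 29.0% and 46.5% in the F4/80high libraries and 12.8%, 24.9% and 24.6% in the F4/80low libraries. Among the TIMPs, *Timp2* held 88.3% in F4/80high replicate 2 and 42.9% to 65.2% in the other 5 libraries, and *Timp3* never held more than 10.1%. The summed MMP level over the summed TIMP level was 2.02, 1.22 and 0.882 in the F4/80high libraries and 3.68, 1.63 and 1.2 in the F4/80low libraries, lower in F4/80high TAMs in each pair but with ranges that overlapped.

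**Figure D3:**
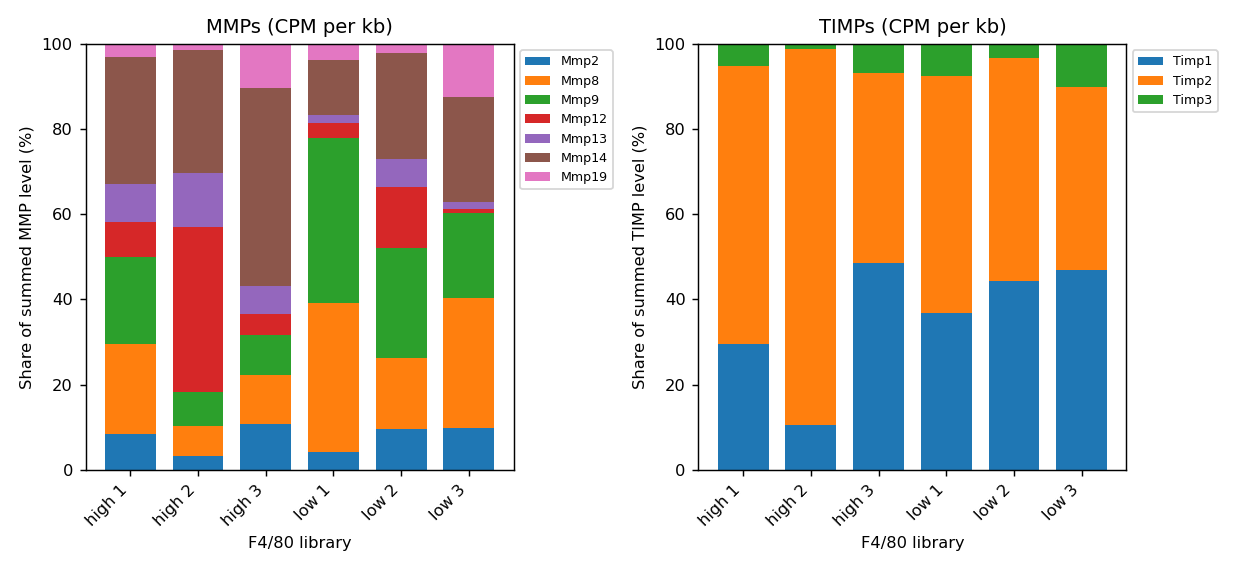
Share of each gene in the summed level (CPM per kb) of the 7 MMPs (left) and the 3 TIMPs (right) in each library, in percent. *Mmp8* and *Mmp9* fill most of F4/80low replicate 1, *Mmp12* is the largest part of F4/80high replicate 2 at 38.7%, and *Timp2* fills 88.3% of the TIMPs of that library.

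Known partners were also set against each other, per kilobase. The ratio of *Mmp9* to *Timp1* was 1.4, 0.935 and 0.172 in the F4/80high libraries and 3.87, 0.952 and 0.506 in the F4/80low libraries. By pair it differed by -1.47, -0.03 and -1.56 on the log2 scale, and the ranges of the subsets overlapped (two-sided exact permutation test without the pairing, p = 0.5). The ratio of *Mmp14* to *Timp2* was 0.922, 0.401 and 0.916 in the F4/80high libraries and 0.847, 0.777 and 0.689 in the F4/80low libraries, with pairs at 0.12, -0.95 and 0.41 on the log2 scale (the same exact permutation test, p = 1). With 3 libraries against 3 the smallest p of this test is 0.1, so it could not have shown a difference. The collagenases *Mmp13* and *Mmp8*, which were picked as a pair for their opposite directions, had a ratio of 0.425, 1.81 and 0.565 in the F4/80high libraries and 0.055, 0.4 and 0.0544 in the F4/80low libraries. This ratio is given as a description, with no test. The F4/80high libraries were all above the F4/80low libraries, by a narrow margin of 0.425 against 0.4, and it was the choice of the pair that fixed the direction.

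*Mmp8* and *Mmp9* are classic contents of neutrophil granules, and 12 neutrophil markers were read beside them. All 12 had a negative log2 fold change, with a median of -1.16, and 8 had an unadjusted p under 0.05 in edgeR, where 4.32% of all genes tested passed in that direction. None was called by edgeR with batch, 5 were called by edgeR with the replicate block, and 4 by DESeq2 with batch. In that direction edgeR with the block called 0.287% of all genes tested, and DESeq2 with batch 0.71%. *Camp* and *Ngp*, which encode proteins of the granules, were among those called with the block, with log2 fold changes with batch of -1.57 (SE 0.26) and -1.34 (SE 0.26), and *Ltf*, which encodes lactoferrin, had -1.08 (SE 0.27). The summed level of the 12 markers was 2049, 887 and 729 CPM in the F4/80high libraries and 4578, 3066 and 1468 CPM in the F4/80low libraries, a difference by pair of -1.16, -1.79 and -1.01 on the log2 scale. The defining gene *Ly6g* was at 1.19 to 8.89 CPM in all libraries, and *Mpo*, a gene of early neutrophil precursors, had 0 counts in 3 of them. The methods state a lineage-negative gate, but the sources used here do not list which antibodies made it up for this sort.

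The summed neutrophil markers were also used as a scale. The sum is no measure of neutrophil number, since *Ly6g* made up little of it, and the share of each other marker is not given here. Per 100 CPM of the summed neutrophil markers, *Mmp8* measured 5.67, 6.36 and 3.56 CPM in the F4/80high libraries and 7.79, 3.93 and 4.85 CPM in the F4/80low libraries. *Mmp9* measured 8.00, 10.6 and 4.25 CPM in the F4/80high libraries and 12.4, 8.88 and 4.51 CPM in the F4/80low libraries. On this scale neither gene kept one direction, with pairs at -0.46, 0.70 and -0.45 for *Mmp8* and -0.63, 0.25 and -0.09 for *Mmp9*. The markers of eosinophils, which are also CD11b+ granulocytes, were lower in F4/80high TAMs as well. All 9 had negative log2 fold changes with a median of -1.65, none called by edgeR with batch or block and 5 by DESeq2 with batch, led by *Prg2*, *Alox15* and *Siglecf*. DESeq2 with batch called 0.71% of all genes tested in that direction. The summed level of the 9 was 179 to 533 CPM in F4/80high and 405 to 1519 CPM in F4/80low TAMs. Both *Epx* and *Ear1*, genes of the eosinophil granule, were at 3.44 CPM or less. The part of either cell type in the values of *Mmp8* and *Mmp9* was not tested. The summed neutrophil markers were themselves lower in F4/80high TAMs in each pair. Dividing by them lessens the difference of any gene that is lower there, so these ratios cannot show which cells the RNA came from.

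**Figure D4:**
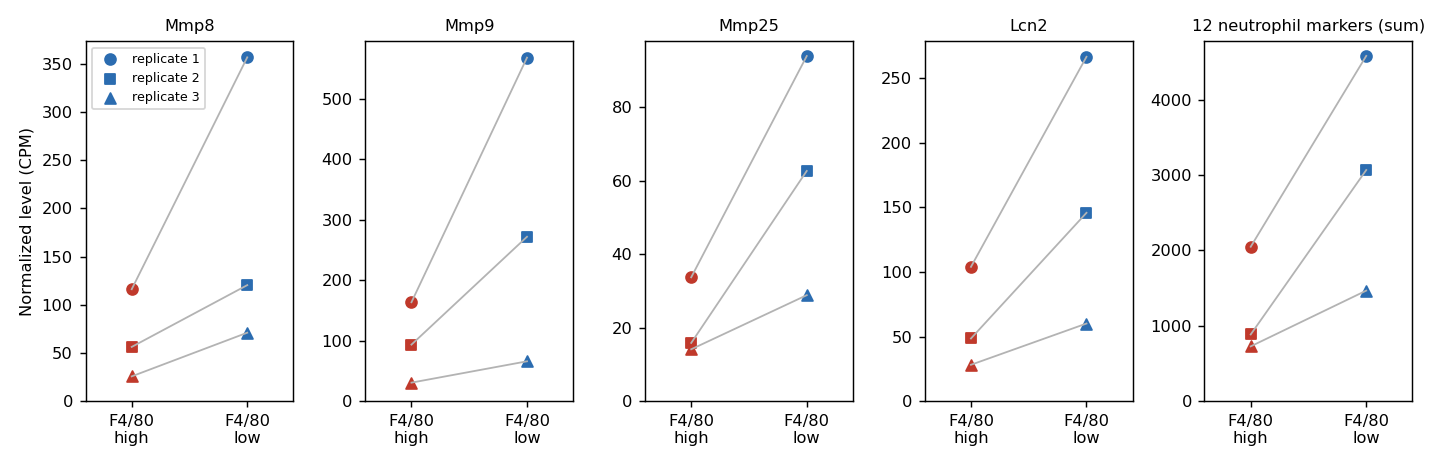
Normalized level (CPM) of *Mmp8*, *Mmp9*, *Mmp25*, *Lcn2* and the sum of 12 neutrophil markers in F4/80high (red) and F4/80low (blue) TAMs, with a line joining the libraries of one experiment. All 5 panels show the F4/80low library above its partner in each of the 3 experiments, and replicate 1 highest in both subsets.

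Macrophage and monocyte markers gave no single direction. Of the 12, 7 were higher and 5 lower in F4/80high TAMs, and *Mertk*, *C1qa* and *C1qb* were called with the replicate block (adjusted p = 0.0381, 0.0272 and 0.0283 by edgeR). All 3 were higher in F4/80high TAMs, where the block called 0.232% of all genes tested in that direction. None of the 5 lower markers was called by the edgeR and DESeq2 fits with batch or block. At an unadjusted p under 0.05 in edgeR, 3 of the 12 passed as higher and 1 as lower. Of all genes tested, 3.28% and 4.32% passed in those directions. *Mertk* encodes a receptor for the uptake of dead cells, and *C1qa* and *C1qb* encode chains of complement C1q. *C1qa* measured 971, 2467 and 543 CPM in the F4/80high libraries and 199, 976 and 83.2 CPM in the F4/80low libraries, with the replicates in the same order as for *Mmp12* and *Mmp13*. Of the 10 fibroblast markers 9 were lower, with a median of -0.47 and none called by any of the edgeR and DESeq2 fits with batch or block. The lowest p among them was that of *Pdgfra*, a growth factor receptor of fibroblasts, at -0.78 (SE 0.32, adjusted p = 0.63 by edgeR). Of 5 endothelial markers tested, 2 were higher and 3 lower in F4/80high TAMs. The 3 melanoma markers tested all had a positive log2 fold change, with a median of 0.25. At an unadjusted p under 0.05 in edgeR, 1 endothelial and 1 melanoma marker passed, both higher in F4/80high TAMs. No endothelial or melanoma marker was called by the edgeR and DESeq2 fits with batch or block.

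Other genes of the family were read from a list of 17, of which 11 had enough counts to be tested. Of these, 4 were higher and 7 lower in F4/80high TAMs, with a median log2 fold change of -0.11. None was called by edgeR with batch or block, and DESeq2 with batch called 1. *Mmp25*, which encodes a membrane-bound MMP of leukocytes, measured 33.7, 15.9 and 14.2 CPM in the F4/80high libraries and 93.8, 62.6 and 28.9 CPM in the F4/80low libraries. Its log2 fold change was -1.46 (SE 0.34, adjusted p = 0.44 by edgeR, and 0.0509 with the block), and DESeq2 with batch called it (adjusted p = 0.0129). Per 100 CPM of neutrophil markers it lay between 1.65 and 2.05 CPM in all 6 libraries, the most even of the genes so scaled. *Mmp11*, also known as stromelysin 3, was at 3.26 to 10.8 CPM, with a log2 fold change of -1.07 (SE 0.45, adjusted p = 0.636 by edgeR). *Mmp16*, which encodes a membrane-type MMP, was at 6.23 CPM or less. *Mmp15*, *Mmp20* and *Mmp24* were at or under 3 counts in every library.

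Genes that activate, dock or clear MMPs were taken from a list of 18, of which 15 were tested. Of these, 5 were higher and 10 lower in F4/80high TAMs, the median was -0.51, and 6 had an unadjusted p under 0.05 in edgeR. Of the 6, 1 was higher and 5 lower, where 3.28% and 4.32% of all genes tested passed in those directions. *Lcn2*, whose protein binds MMP9, measured 104, 48.7 and 28.3 CPM in the F4/80high libraries and 267, 146 and 60.2 CPM in the F4/80low libraries, with a log2 fold change of -1.32 (SE 0.34, adjusted p = 0.461 by edgeR). It was called with the replicate block (adjusted p = 0.0348 by edgeR) and is itself a gene of neutrophil granules. *Thbs1*, which encodes the matrix protein thrombospondin 1, had -1.17 (SE 0.28, adjusted p = 0.44 by edgeR), and *Cd44*, a surface receptor that holds MMP9, had -0.68 (SE 0.24, adjusted p = 0.554 by edgeR). *Plau*, which encodes urokinase, an activator of plasminogen, measured 6.31, 12 and 91.3 CPM in the F4/80high libraries and 3.49, 7.03 and 39.5 CPM in the F4/80low libraries. It was higher in F4/80high TAMs in each pair (difference of 0.94 on the log2 scale, SE 0.36, adjusted p = 0.601 by edgeR), and highest in batch 2, where most members were lowest. *Cd63*, a tetraspanin known to bind TIMP1, had 0.53 (SE 0.35) and *Cd151* 0.36 (SE 0.30).

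Of 18 matrix proteins that MMPs cut, 15 had a negative log2 fold change, with a median of -0.47. *Vcan*, which encodes the proteoglycan versican and is also a gene of monocytes, measured 38.3, 11.4 and 135 CPM in the F4/80high libraries and 122, 60.8 and 385 CPM in the F4/80low libraries. It had a log2 fold change of -1.76 (SE 0.44, adjusted p = 0.44 by edgeR) and was the 1 gene of this list called with the block (adjusted p = 0.0272 by edgeR). *Lamb1*, a laminin chain, had -0.55 (SE 0.26) and *Sparc*, a matrix glycoprotein, -0.59 (SE 0.34). *Spp1*, which encodes osteopontin, was the highest of the list in most libraries, with 983 to 5848 CPM and a log2 fold change of 0.27 (SE 0.41, adjusted p = 0.904 by edgeR). *Fn1*, which encodes fibronectin, had 0.13 (SE 0.45).

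Of the members, *Mmp13*, *Mmp12* and *Mmp8* lie near each other in the MMP gene cluster of chromosome 9, with *Mmp1b*, *Mmp3*, *Mmp1a* and *Mmp10* between them in that order from *Mmp12* to *Mmp8*. The outermost of these members differed in direction. *Mmp13* and *Mmp12* were higher in F4/80high TAMs in each pair and *Mmp8* was lower in each, within 295972 bases from the start of *Mmp13* to the end of *Mmp8*. *Mmp3*, which encodes stromelysin 1, had pairs at 0.67, -1.72 and 0.57 and a log2 fold change of 0.26 (SE 0.59, adjusted p = 0.942 by edgeR), with 190 CPM in F4/80high replicate 1 and 23.8 CPM in F4/80high replicate 2. *Mmp10*, named for its place between the members, had 302 counts in all and pairs at 0.11, 1.17 and 0.43. *Mmp1a* and *Mmp1b* had 20 counts each in all.

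**Figure D5:**
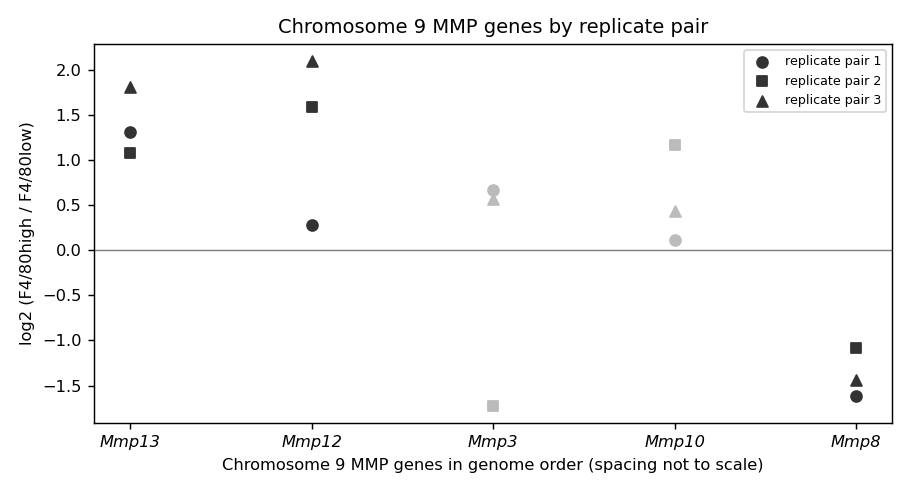
Difference within each replicate pair, log2 of F4/80high over F4/80low after adding 0.5 CPM, for the MMP genes of chromosome 9 from *Mmp13* to *Mmp8* in genome order (spacing not to scale), with members in black and other genes in grey. *Mmp13* and *Mmp12* lie above 0 in all 3 pairs, *Mmp8* lies between -1.61 and -1.09, and *Mmp3* lies on both sides of 0.

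Since these 3 genes differed in direction, the 120 bases before their transcription starts are shown, from RefSeq on GRCm38.p6. A start entry was found for 7 of the 10 members. The capitals mark TGANTCA, the letters bound by AP-1, a pair of FOS and JUN proteins known to act on many MMP genes. It reads the same on both strands, and none of its matches overlapped the other motif searched.
Mmp13, chr9:7272394-7272513, + strand: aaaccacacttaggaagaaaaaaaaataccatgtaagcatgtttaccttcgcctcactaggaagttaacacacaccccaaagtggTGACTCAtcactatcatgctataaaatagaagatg
Mmp12, first start, chr9:7344277-7344396, + strand: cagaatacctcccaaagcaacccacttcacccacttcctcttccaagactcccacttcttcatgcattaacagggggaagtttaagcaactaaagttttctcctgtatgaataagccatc
Mmp12, second start, chr9:7347254-7347373, + strand: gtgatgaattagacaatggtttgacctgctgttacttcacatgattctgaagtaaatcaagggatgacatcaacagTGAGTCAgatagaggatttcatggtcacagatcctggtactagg
Mmp8, chr9:7558309-7558428, + strand: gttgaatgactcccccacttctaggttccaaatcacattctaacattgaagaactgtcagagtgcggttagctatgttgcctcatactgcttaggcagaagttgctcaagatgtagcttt
Within 250 bases before the start, TGANTCA was found in *Mmp13*, at -35, and in the second entry of *Mmp12*, at -44, counted from the start to the first base of the match. It was absent from the window of the other 6 entries of members, *Mmp8* included, and present in 6.75% of 32851 promoters. AGGAAG, the letters of the PEA3 site, was found on one strand or the other in 6 of the 7 members and in 29.5% of all promoters. *Mmp8* held it as well as *Mmp12* and *Mmp13*. A match is no more than the presence of these letters.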

How the data were processed

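Poly-A RNA of sorted F4/80high and F4/80low TAMs was sequenced in 6 libraries, 3 of each subset, and samples were grouped by their titles. The authors deposited, for each library, the raw read count of each of 23424 genes with its length in bases, and no normalization. The aligner, counting rule, strand setting and annotation are not given in the sources used here. Of the gene IDs, 99.4% were found in GENCODE M21 (GRCm38).

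The 14645 genes that are protein-coding in M21 and reached a sum of 10 counts or more over all libraries were tested with edgeR 4.0.16 in R 4.3.3 (quasi-likelihood test, TMM normalization, terms for batch and subset). Calls needed an adjusted p (Benjamini-Hochberg, over all genes tested) under 0.05 and a log2 fold change beyond 1 in either direction. The batch was taken from the study's plot of its libraries. CPM are scaled by TMM. Alternatives were the replicate number as a block, DESeq2 1.42.0 (the authors' tool) with batch or block, RLE factors, library size alone, no batch term, other count filters, all biotypes, leaving out each library, batch 1 alone and the adjusted p alone. Replicates of one number were taken to come from one experiment, as the study states 3 independent experiments, and were treated as paired. The titles give the replicate number alone. Their deviations from the mean of each subset had correlations of 0.745, 0.729 and 0.907, computed on the 10072 genes whose log2 CPM averaged 2 or more. Batch was not removed from these deviations, so the correlations cannot show pairing apart from batch. The fits were tested on simulated data, where the share of false calls was above the nominal rate in all 4 fits. It was higher with the block or with DESeq2 than with edgeR and batch. The simulated counts held batch but no effect of single experiments, so they could not rate the block for paired libraries.

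The members and the 11 other gene lists were chosen with earlier results of these data known. Of each other list, up to 3 genes with the lowest p in each direction and an average log2 CPM of 1 or more are named, with *Adgre1*, genes that overlap a member or lie between members, and marker genes at or near 0. The lists cover other MMPs and TIMPs, MMP activators and docking, ADAM proteases, matrix substrates, osteoclast genes and markers of neutrophils, eosinophils, fibroblasts, melanoma cells, endothelial cells and macrophages.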

Additional observations from a re-analysis of the deposited data

How the results depend on the processing

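With edgeR and batch, 0 members, 0 genes of the other lists and 0 of all genes were called. The replicate block called 2 members, 10 genes of the other lists and 76 genes in all, DESeq2 with the batch term gave 2, 16 and 150, and its fit with the block gave 4, 23 and 356. Leaving out 1 library called 0 members throughout, and 0 to 2 genes of the other lists, with 57 genes in all without F4/80high replicate 1. Each member was computed under 17 alternatives, and none of the 10 changed sign under any of them. Of these 170 values 162 stayed on the same side of the threshold, and 8 passed it, 3 each for *Mmp8* and *Mmp9* and 1 each for *Mmp12* and *Mmp13*, all under DESeq2 or the block. No other member's call changed with the block. Of the genes with an unadjusted p under 0.05, 480 were higher and 633 lower in F4/80high TAMs, against 560 and 481 with library size alone, and 253 genes in all passed with no batch term. The cause of these differences was not tested. Each subset had 3 libraries, and the lowest count of a member in any of them was 37.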

Other observations

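Among 15 ADAM and ADAMTS genes, relatives of the MMPs that cut proteins at the cell surface or in the matrix, 6 were higher and 9 lower in F4/80high TAMs, with a median log2 fold change of -0.40. None was called by edgeR with batch or block, and 3 had an unadjusted p under 0.05 in edgeR. All 3 were lower in F4/80high TAMs, where 4.32% of all genes tested passed in that direction. *Adamdec1*, a gene of macrophages, measured 10.8, 10.8 and 3.68 CPM in the F4/80high libraries and 21.3, 34 and 10.2 CPM in the F4/80low libraries, and DESeq2 with batch called it (log2 fold change -1.38, adjusted p = 0.0105). *Adam19* had -0.94 (SE 0.31, edgeR adjusted p = 0.524) and *Adamts4*, an aggrecanase, -1.25 (SE 0.53, edgeR adjusted p = 0.639). *Adam9*, *Adam17* and *Adam15* had positive values of 0.77 (SE 0.39), 0.43 (SE 0.26) and 0.43 (SE 0.39). *Adam17* encodes the protease that releases TNF and is one of the ADAM proteases that TIMP3 blocks.

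Of 7 genes of osteoclasts, which are bone-resorbing cells of the macrophage lineage that use MMP9 and MMP14, 6 were lower in F4/80high TAMs, with a median of -1.08 and none called by edgeR with batch or block. *Dcstamp*, which encodes a protein of cell fusion, measured 3.13, 1.52 and 0.216 CPM in the F4/80high libraries and 19.3, 8.04 and 2.62 CPM in the F4/80low libraries, with a log2 fold change of -2.76 (SE 0.56, edgeR adjusted p = 0.434, and 0.0528 with the block). DESeq2 with batch called it (adjusted p = 0.00256). *Ocstamp*, its relative, had -1.08 (SE 0.36), and *Ctsk*, which encodes the collagen-cutting cathepsin K, -1.53 (SE 0.52), with 111 CPM in F4/80low replicate 1 and 4.97 to 28.0 CPM in the other 5 libraries. *Acp5*, tartrate-resistant acid phosphatase, was the 1 gene of the list with a positive value, 0.62 (SE 0.30). None of these lists was tested as a set.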
